A study of Mus musculus with 4 samples.

Results

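The genes described here are 10 mouse genes grouped as feedback inhibitors of MAP kinase signalling. They are the MAP kinase phosphatase genes Dusp1, Dusp4, Dusp6 and Dusp10, the Sprouty genes Spry1, Spry2 and Spry4, the Sprouty-related genes Spred1 and Spred2, and Trib1. They were chosen by their known roles and by whether these peak lists hold a peak at them, which made the presence, number, fold enrichment and Ctrl or KO origin of their peaks part of the choice, and all 10 were found among 21887 protein-coding genes of the RefSeq table. Binding of PHF2, which reads histone marks through a PHD finger and belongs to the JmjC family of demethylases, was mapped by CUT&RUN, a method that tethers a nuclease to an antibody and sequences the DNA it frees. Gastrocnemius (calf) muscle was used, from male C57BL/6 mice aged 4 weeks. Ctrl mice were Phf2 flox/flox;Acta1 Cre- and KO mice Phf2 flox/flox;Acta1 Cre+, so both carry the floxed allele, and Acta1 drives Cre in muscle fibres and not in the other cells of the muscle. From either genotype there was 1 library made with an antibody to PHF2 and 1 made with IgG, which binds no particular protein, so the 4 groups hold 1 library each. The labels do not say how many animals a library holds. Without replicates, no test across samples was made, and a difference below is one between libraries, which cannot be told apart from one between genotypes.

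Growth factor receptors activate Ras and then the kinases Raf, MEK and ERK, while stress activates the related kinases JNK and p38. Activated cells switch on inhibitors of these same steps, and this negative feedback limits how strong and how long the signal is. MAP kinase phosphatases remove the activating phosphates from the kinases, Sprouty and Spred proteins act between the receptor and Raf, and Trib1 is a pseudokinase that brings a ubiquitin ligase to its substrates. In muscle, Spry1 is known for its part in the return of satellite cells, the muscle stem cells, to quiescence.

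Peaks were taken where they overlapped a gene's body, or 5 kb on either side of it, by at least 1 bp. In the Ctrl PHF2 library 8 of the 10 genes held a peak, with 15 of the 1621 listed peaks in all. In the KO PHF2 library 5 genes held 6 of the 161 peaks. Neither IgG list had a peak at any of them: 0 of 10 genes in each. The genes were not drawn at random, so these counts set no limit on a share. By the same window, 7.38% of all protein-coding genes had a Ctrl PHF2 peak and 0.713% a KO PHF2 peak, with 0.0640% for Ctrl IgG and 0.155% for KO IgG. Since the genes were named with their PHF2 peaks known, nothing is read from the distance between the members' counts and these shares.

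Dusp1, Dusp6, Spry1, Spry2 and Trib1 had a peak in both PHF2 libraries, as did 0.576% of all protein-coding genes and 7.80% of those with a Ctrl peak. Dusp10, Spry4 and Spred1 had a peak in Ctrl only, as did 6.80% of all protein-coding genes. Dusp4 and Spred2 had none in any list. A missing KO peak means only that none was listed, since KO signal outside the listed peaks was not measured. The width of the window did not set these counts of genes. It did change the number of Ctrl peaks, from 15 to 13 with 1 kb on each side and to 11 within gene bodies alone. The peak farthest from the body of its gene was the outermost at Spry2, 1583 bp away, and the nearest Ctrl PHF2 peak left out was 207190 bp from Dusp1. No peak at a member overlapped the annotated body of another gene.

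**Figure D1:**
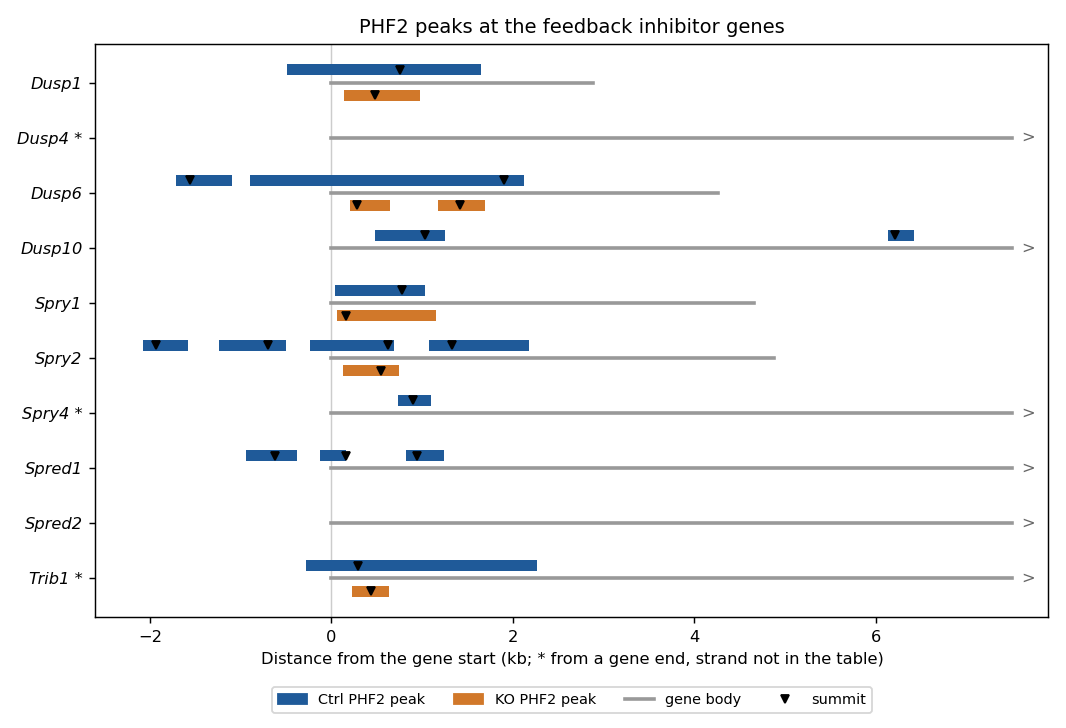
Position of every PHF2 peak at the 10 genes, in kb from the gene start, with Ctrl peaks in blue above and KO peaks in orange below the grey gene body, and summits as triangles. Genes with an asterisk are drawn from a gene end, since their strand was not in the table. KO peaks lie within or across a Ctrl peak at Dusp1, Dusp6, Spry1, Spry2 and Trib1, and Dusp4 and Spred2 hold none.

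The promoters of 7 of the 10 genes were in the RefSeq promoter table (GRCm38.p6, the assembly behind mm10), and Dusp4, Spry4 and Trib1 had no entry. The following 4 sequences are shown because peaks separate them: Ctrl PHF2 peaks covered all of the 300 bases around the start of Dusp1 and of Dusp6 and 289 of those at Spry2, while Spred2 had no peak. Each is the 250 bases before the start, 5′ to 3′ on the strand of the gene, and capitals mark matches to the motifs named after them.
Dusp1 (chr17:26508473-26508722, minus strand): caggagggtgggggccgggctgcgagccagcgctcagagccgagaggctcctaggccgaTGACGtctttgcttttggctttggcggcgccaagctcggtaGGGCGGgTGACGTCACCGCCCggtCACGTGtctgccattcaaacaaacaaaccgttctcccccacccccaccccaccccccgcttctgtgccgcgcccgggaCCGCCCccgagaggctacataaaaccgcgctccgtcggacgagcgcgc
Dusp6 (chr10:99262981-99263230, plus strand): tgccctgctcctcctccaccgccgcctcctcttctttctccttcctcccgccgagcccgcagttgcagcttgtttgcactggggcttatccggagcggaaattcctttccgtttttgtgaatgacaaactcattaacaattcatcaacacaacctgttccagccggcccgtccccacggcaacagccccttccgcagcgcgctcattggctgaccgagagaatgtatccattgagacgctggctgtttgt
Spry2 (chr14:105896820-105897069, minus strand): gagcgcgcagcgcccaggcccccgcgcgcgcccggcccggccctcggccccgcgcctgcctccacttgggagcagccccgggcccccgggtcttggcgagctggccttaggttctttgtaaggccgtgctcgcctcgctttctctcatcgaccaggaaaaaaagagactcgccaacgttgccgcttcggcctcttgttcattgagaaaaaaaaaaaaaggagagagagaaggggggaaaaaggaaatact
Spred2 (chr11:19924192-19924441, plus strand): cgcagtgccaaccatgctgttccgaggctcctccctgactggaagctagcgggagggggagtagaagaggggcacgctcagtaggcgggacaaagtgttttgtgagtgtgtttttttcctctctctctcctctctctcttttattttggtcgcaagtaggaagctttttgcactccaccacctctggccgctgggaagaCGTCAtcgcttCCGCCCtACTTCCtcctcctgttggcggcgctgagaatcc

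Both strands of these 250 bases were searched for 6 short motifs. The cyclic AMP response element (CRE) core TGACG occurred at Dusp1 and Spred2 among the 7 members, and in 20.2% of 21263 protein-coding promoters. Dusp1 held 3 matches, a number reached by 0.917% of promoters. The matches that begin at -143 and -140, counted from the start, overlap on opposite strands. Dusp1 also held the E-box CACGTG, present in 6.63% of promoters. The SP motif GGGCGG occurred in 5 of the 7 (Dusp1, Dusp10, Spry1, Spred1 and Spred2) and in 42.6% of all promoters. The ETS motif GGAAGT was found at Spred2 alone and in 20.4% of promoters. CCGGAA (15.0% of promoters) and the AP-1 motif TGANTCA (6.13%) matched none of the 7. Over the 300 bases around the start, CCGGAA did occur at Spry2, beginning at 33 counted from the start, and in 18.7% of promoters. Of the promoters under Ctrl peaks printed above, Dusp1 matched the CRE core, the SP motif and the E-box. Dusp6 and Spry2 had no match to any of the 6 in the 250 bases. Spred2, without a peak, had matches to 3. Whether motifs and peaks go together was not tested. The 300 bases around the start held 40 CpG at Spred1, 31 at Dusp1, 29 at Spry1 and 28 at Spry2, above the upper quartile of 24 over all promoters (median 13, lower quartile 4). Dusp10 held 24, Dusp6 19 and Spred2 17, between the median and that quartile or equal to it. A match describes letters only.

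Fold enrichment is the authors' ratio of tags at a peak's summit to the caller's local background, and the number of tags at each PHF2 summit was recovered from it and the -log10 p. Intervals for tags are exact Poisson 95% intervals for counting error only. Library totals are unknown, and the values recovered put the KO PHF2 library at 1.01 times the size of the Ctrl PHF2 library. Over each whole list the median fold enrichment was 6.37 in Ctrl and 6.64 in KO, the median summit held 15 tags in both, and the median width was 505 bp in Ctrl and 451 bp in KO. At the members, 11 of 15 Ctrl peaks and 4 of 6 KO peaks exceeded the median fold enrichment of their list. Fold enrichment was part of how the genes were chosen, so nothing is read from these counts.

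Among the MAP kinase phosphatases, Dusp1 (Gene ID 19252) had a single Ctrl peak that spread over its start and the greater part of the gene. Dusp1 encodes a nuclear phosphatase of p38, JNK and ERK that is itself induced within minutes of stimulation. The gene covers chr17:26505591-26508472 in mm10. The Ctrl peak, at chr17:26506818-26508956, was 2139 bp wide, ranked 37 of 1621 by width, and covered 57.4% of the gene body. Its fold enrichment was 8.84, with 24 tags (15.4 to 35.7) at a summit 759 bp downstream of the start. The KO peak, at chr17:26507500-26508334, lay wholly inside it and was 835 bp wide. The KO fold enrichment was 4.39, the lowest value in the KO list, while its summit held 20 tags (12.2 to 30.9). The ratio of KO to Ctrl was thus 0.497 for fold enrichment and 0.833 (0.437 to 1.57) for tags. The backgrounds differed as well, at 0.876 in Ctrl and 2 in KO on the caller's scale. At Dusp1 the tags of the 2 libraries were within counting error of each other.

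Dusp6 (Gene ID 67603), which encodes a cytoplasmic phosphatase selective for ERK, had the widest peak of the set. The gene covers chr10:99263231-99267489. Its main Ctrl peak, at chr10:99262339-99265354, was 3016 bp wide, ranked 9 of 1621, and ran from 892 bp before the start to 2123 bp after it. This peak was less distinguished by height than by width: its fold enrichment was 6.99 and its summit, 1903 bp downstream of the start, held 20 tags (12.2 to 30.9). A second Ctrl peak lay upstream, at chr10:99261522-99262140, separated from the first by 198 bp, with a fold enrichment of 5.37 and 15 tags (8.40 to 24.7). The KO library had 2 peaks inside the wide Ctrl peak, of 444 and 517 bp. Their summits stood 281 and 1420 bp downstream of the start, with fold enrichments of 6.02 and 6.76 and 14 tags each (7.65 to 23.5). They covered 14.7% and 17.1% of the Ctrl peak, and neither reached the upstream one.

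Dusp10 (Gene ID 63953) encodes a phosphatase that acts on JNK and p38 rather than ERK. It had 2 narrower Ctrl peaks inside its body (chr1:184034381-184075636) and none in KO. The first, at chr1:184034863-184035632, was 770 bp wide with its summit 1028 bp downstream of the start and a fold enrichment of 6.78. The second, at chr1:184040509-184040800, was 292 bp wide, the least width in the list, with its summit 6207 bp downstream and a fold enrichment of 5.37. Both summits held 15 tags (8.40 to 24.7), the median of the list. Dusp4 (Gene ID 319520, chr8:34807610-34819894), which encodes a nuclear phosphatase close to that of Dusp1, had no peak in any of the 4 lists. The nearest Ctrl PHF2 peak was 877795 bp away.

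The Sprouty genes held 6 Ctrl peaks, and each of the 3 had at least 1. Sprouty proteins are induced by receptor signalling and curb activation of the Ras pathway. Spry2 (Gene ID 24064, chr14:105891947-105896819) had 4 Ctrl peaks in a stretch of 4253 bp, separated by gaps of 391, 262 and 343 bp. Of the 1615 genes with a Ctrl PHF2 peak 0.619% had at least 4, and 14.6% had at least 2, as did 4 of the 8 members with one (Dusp6, Dusp10, Spry2 and Spred1). The number of peaks was part of how the genes were chosen, so nothing is read from these shares. Merging peaks within 1 kb, which is wider than the gaps at Spry2, joins its 4 peaks. The Spry2 summits lay at -1927, -703, 626 and 1334 bp from the start, negative values being upstream. In that order the fold enrichments were 6.94, 8.84, 7.53 and 9.80, and the tags 13, 17, 27 and 19. The order of the peaks therefore depended on the measure. The peak over the start, at chr14:105896130-105897058, had the most tags (27, interval 17.8 to 39.3) and the third highest fold enrichment, over a background of 1.46 against 0.361 at the others. The KO library had a single peak at Spry2, at chr14:105896078-105896690, with its summit 77 bp from that of the Ctrl peak over the start. The fold enrichments of the 2 were 7.55 in KO and 7.53 in Ctrl, and the tags 15 (8.40 to 24.7) and 27, a ratio of 0.556 (0.275 to 1.08).

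Spry1 (Gene ID 24063, chr3:37639947-37644599) had the largest shared part of the Ctrl peak among the 6 overlapping pairs, though not the nearest summits or the closest values. The Ctrl peak, at chr3:37639992-37640984, was 993 bp wide and the KO peak, at chr3:37640006-37641097, was 1092 bp wide. They shared 979 bp, which was 98.6% of the Ctrl and 89.7% of the KO peak. Both began just after the start, so that the Ctrl peak covered only 5 bases of the 300 around it. Fold enrichment was 9.65 in Ctrl with 22 tags (13.8 to 33.3), and 8.45 in KO with 17 tags (9.90 to 27.2). The KO peak ranked 17 of 161 by fold enrichment and 5 by width, the highest place of a member on both in that list. The summits were 609 bp apart, at 773 bp downstream of the start in Ctrl and 164 bp in KO.

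Spry4 (Gene ID 24066, chr18:38586247-38601347) had 1 narrow Ctrl peak and none in KO. The peak, at chr18:38600248-38600611, was 364 bp wide and lay inside the gene, with its summit 903 bp from the upper end of the body. Its fold enrichment of 8.84 and its 17 tags (9.90 to 27.2) were the same values as at the upstream Spry2 peak beside the start. Narrow and high, it ranked 164 of 1621 by fold enrichment and 1209 by width.

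Spred1 and Spred2 encode membrane-associated inhibitors of Ras activation, which are known to bring in the Ras inactivator neurofibromin. Spred1 (Gene ID 114715, chr2:117121071-117182279) had 3 Ctrl peaks in 2174 bp around its start and none in KO. Its highest fold enrichment, 6.46 at the downstream peak, was the lowest such value among the 8 genes. The peak over the start, at chr2:117120946-117121237, was 292 bp wide, with a fold enrichment of 4.01, rank 1594 of 1621, although its summit held 17 tags (9.90 to 27.2) over a background of 2. The peak upstream of it had a fold enrichment of 5.78 with 11 tags (5.49 to 19.7). The downstream peak had 12 tags (6.20 to 21.0). The peak over the start was also the only Ctrl peak at a member whose -log10 p, 5.86, lay below the 6.19 of the weakest KO PHF2 peak. Spred2 (Gene ID 114716, chr11:19924442-20024026) held no peak in any list, over the longest body of the 10 genes (99585 bp). The nearest Ctrl PHF2 peak was 806369 bp away.

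Trib1 (Gene ID 211770, chr15:59648654-59657099) had the strongest peak of the set in Ctrl. At chr15:59648380-59650920 it spanned 2541 bp across the lower end of the gene. Its fold enrichment was 12.6, rank 20 of 1621, with 32 tags (21.9 to 45.2), rank 12. The KO peak was 402 bp wide, at chr15:59648886-59649287, and lay wholly inside the Ctrl peak. The KO fold enrichment was 7.16 with 18 tags (10.7 to 28.4), and the summits were 151 bp apart. The ratio of KO to Ctrl was 0.569 for fold enrichment and 0.563 (0.297 to 1.03) for tags, over similar backgrounds of 0.672 and 0.730.

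**Figure D2:**
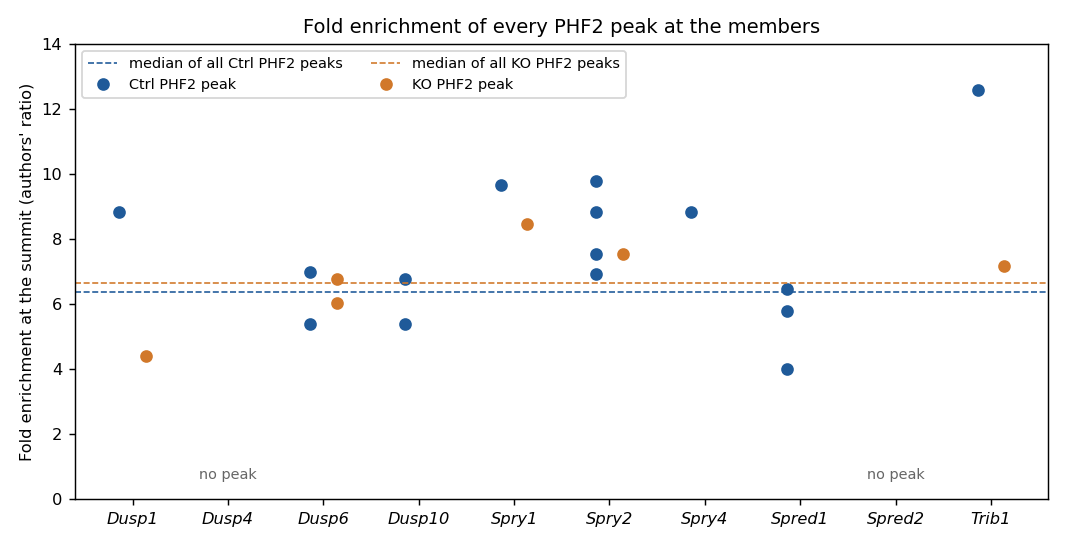
Fold enrichment (the authors' ratio) of each PHF2 peak at the 10 genes, with Ctrl peaks in blue and KO peaks in orange and dashed lines at the median of each whole list, 6.37 and 6.64. Trib1 has the highest Ctrl value (12.6), Dusp1 the lowest KO value (4.39) and the 3 Spred1 peaks lie between 4.01 and 6.46.

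Across the set, the Ctrl peaks with a KO counterpart were those with the most tags. The 5 Ctrl peaks that overlapped a KO peak had 20 to 32 tags, widths of 929 to 3016 bp and fold enrichments of 6.99 to 12.6. The 10 Ctrl peaks with no overlap had 11 to 19 tags, widths of 292 to 1095 bp and fold enrichments of 4.01 to 9.80. The 2 sets thus did not overlap in tags, and they did in width and in fold enrichment. This separation rests on the overlap of at least 1 bp. With an overlap of 50% of both peaks, only the Spry1 peak (22 tags) and the Spry2 peak over the start (27 tags) kept a counterpart, and peaks with 20, 24 and 32 tags joined the other set. When a KO peak within 1 kb was enough, 7 Ctrl peaks had a counterpart, among them the Spry2 peaks of 17 and 19 tags. The Spry4 peak, also of 17 tags, had none. Presence in KO was part of how the genes were chosen, so this is a description. In the whole Ctrl list the limit of 20 tags, taken from these members, left 21.1% of peaks at or above it with a KO overlap and 3.22% of those below it. Over all 1621 Ctrl peaks the share overlapped was 7.03%, beside 5 of 15 at the members.

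All 6 KO peaks at the members overlapped a Ctrl peak, and in each of the 6 pairs the KO summit had fewer tags. The pairs hold 5 Ctrl peaks, since that of Dusp6 stands in 2 of them. The summits of a pair were 77 to 1622 bp apart, so a ratio compares the highest points of overlapping peaks and not signal at the same site. The tag ratios of KO to Ctrl ran from 0.556 at Spry2 to 0.833 at Dusp1 with a median of 0.70, and every one of the 6 intervals included 1. Over all 126 overlapping pairs of the lists the median was 0.717, with quartiles of 0.579 and 0.883. The ratios at the members therefore lay near those of shared peaks in general. For fold enrichment the median ratio was 0.868 at the members and 0.90 over all pairs.

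**Figure D3:**
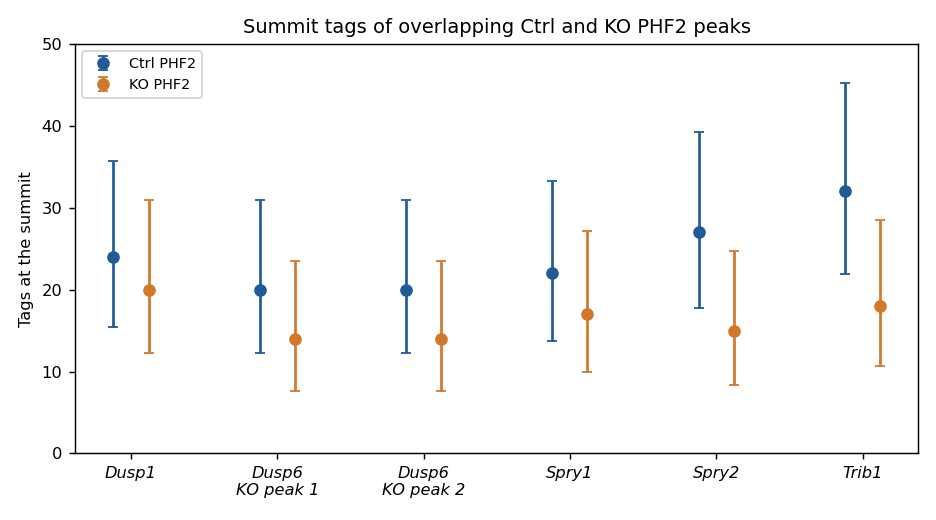
Tags at the summit for the 6 overlapping pairs of Ctrl (blue) and KO (orange) PHF2 peaks, with exact Poisson 95% intervals. The KO point is lower in every pair and the intervals of each pair overlap. The Ctrl peak of Dusp6 is drawn beside both of its KO peaks.

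Beyond the window, position relative to the start was not part of how the genes were chosen. The window is shorter for short genes, which leaves less room for a summit far from the start. The median body was 10366 bp for the members and 40393 bp for genes with a Ctrl PHF2 peak. Position could be read for the 13 Ctrl peaks at the 6 genes with a peak and a strand in the table. Of their summits 7 lay within 1 kb of the start, against 76.8% of 1523 pairs of a Ctrl peak and a gene of the table whose window holds it. A member's start was the first entry of the promoter table for its gene. For all pairs, here and for covered starts below, any entry of the gene could count, which can only raise the shares near or over the start. Within 500 bp the count was 1, the Spred1 peak over the start, against 58.6%, and within 2 kb it was 12, against 84.2%. The Ctrl summits at the members thus stood mostly between 500 bp and 2 kb from the start, on either side. Of the 5 KO summits, 2 of them at Dusp6, 3 lay within 500 bp of the start and all 5 downstream of it. Summit positions were not counted over all KO peaks, so no contrast with Ctrl is read from these. Of the Ctrl summits 9 of 13 lay downstream of the start, against 72.4% of all pairs. With 13 peaks from 1 library, which share genes, these counts describe the set and were not tested.

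Although their summits were off the start, 4 of the 13 Ctrl peaks covered it (Dusp1, Dusp6, Spry2 and Spred1), against 34.9% of all pairs. None of the 5 KO peaks at these genes did, against 16.2% of 136 KO pairs. All 5 lay downstream of the start, with the nearer edge 59 bp from it at Spry1 and 1176 bp at the second Dusp6 peak. The promoter sequences of Dusp1 and Dusp6 printed above were thus wholly, and that of Spry2 for 239 of its 250 bases, under a Ctrl peak, and all 3 lay outside the KO peaks.

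In length under Ctrl peaks, 7 of the 8 members with a peak stood above the median of all genes with one and Spry4 below it. Dusp6 had 3635 bp, rank 14 of 1615 genes, Spry2 3257 bp, rank 19, Trib1 2541 bp, rank 40, and Dusp1 2139 bp, rank 66. Spred1 (1269 bp), Dusp10 (1062 bp) and Spry1 (993 bp) ranked 230, 312 and 355, and Spry4, with 364 bp, ranked 1228. The median was 1704 bp over the 8 members with a peak and 543 bp over all 1615 genes, and the members with a peak were in part chosen for it. The median body of the 10 genes was 10366 bp, against 17169 bp for all protein-coding genes and 40393 bp for genes with a Ctrl PHF2 peak.

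**Figure D4:**
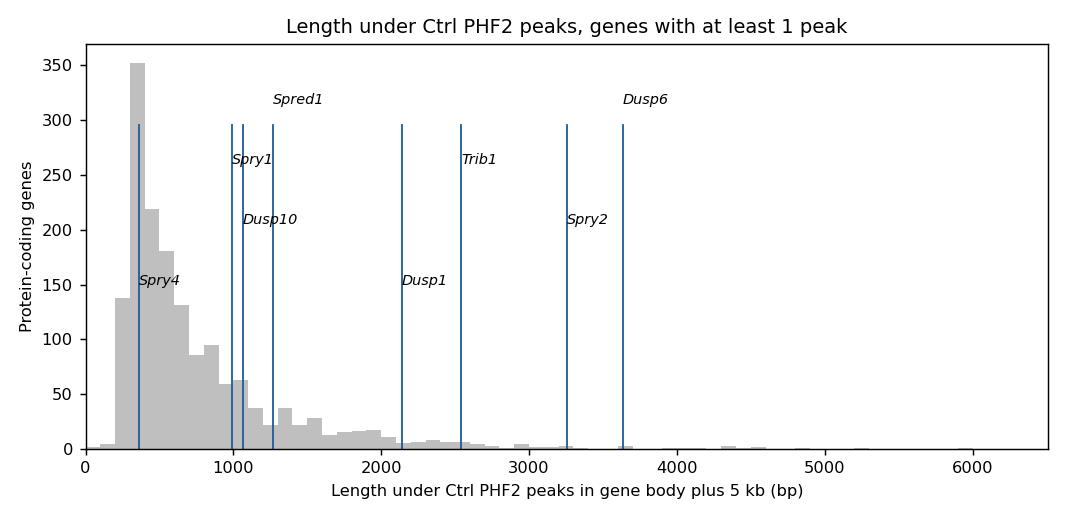
Number of protein-coding genes by length under Ctrl PHF2 peaks within the gene body plus 5 kb, in bp, over the 1615 genes with a peak, with blue lines at the 8 members that have one. Dusp6 (3635 bp) and Spry2 (3257 bp) stand far to the right and Spry4 (364 bp) in the tallest bar.

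The relatives of these genes and the rest of the pathway were read from 7 lists, written with earlier results known. The other 6 MAP kinase phosphatase genes (Dusp2, Dusp5, Dusp7, Dusp8, Dusp9 and Dusp16) and 15 further dual-specificity phosphatase genes had no peak in any PHF2 list. Of 4 other Sprouty, Spred and Tribbles genes only Trib2 had peaks. Its Ctrl peak had 35 tags and a fold enrichment of 5.93. Its 2 KO peaks reached a higher fold enrichment (7.47) with fewer tags (at most 19). In all, 1 of 25 relatives (4.00%) had a Ctrl PHF2 peak, beside 7.38% of all genes. Among 12 other inhibitors of receptor tyrosine kinases and Ras, 5 had a Ctrl peak: Lrig1, which limits receptor levels and also had a KO peak (9.88 in Ctrl, 6.19 in KO), the ubiquitin ligase gene Cblb (7.32), the cytokine inhibitor gene Socs3 (6.34), and the Ras GTPase-activating protein genes Rasa1 (5.37) and Rasal2 (5.05).

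Upstream and downstream of the inhibitors the counts were as follows. Among receptor and adaptor genes the adaptor gene Gab1 (8.85 in Ctrl, 5.73 in KO) and the Ras exchange factor gene Sos2 (8.84) led. The receptor genes Egfr (6.46), Fgfr1 (5.79) and Igf1r (5.05 with 14 tags in Ctrl, 5.78 with 12 tags in KO) followed. In all, 5 of these 18 genes had a Ctrl peak. Of 18 Ras, Raf and MAP kinase genes 3 did, the p38 gene Mapk14 (12.2), the MEK gene Map2k1 (7.89) and the scaffold gene Ksr1 (4.40), and none had a KO peak. Of 20 transcription factor genes of the ERK response 10 did, the highest being Jun (16.1), Myc (13.9 in Ctrl, 6.02 in KO), Fosl2 (11.3), Ets1 (6.99 in Ctrl, 5.28 in KO), Ets2 (6.75) and the serum response factor gene Srf (6.66). Over the 7 lists 24 of 93 genes (25.8%) had a Ctrl and 6 (6.45%) a KO PHF2 peak.

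**Figure D5:**
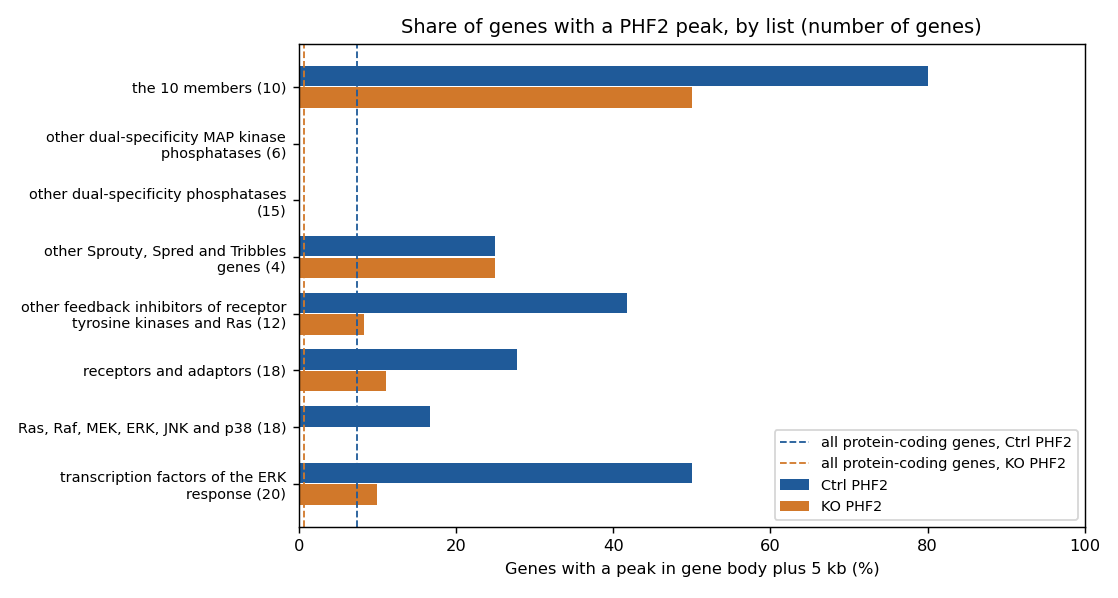
Percent of genes with a Ctrl (blue) or KO (orange) PHF2 peak in the gene body plus 5 kb, for the 10 members and 7 pathway lists with the number of genes in brackets, and dashed lines at all protein-coding genes (7.38% and 0.713%). The lists of other phosphatases have no bar, and the response factors reach 50% in Ctrl.

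Peaks do not measure RNA, so the tissue label was not checked by these files, and markers were read for position only. A Ctrl PHF2 peak lay at 3 of 10 muscle fibre markers (Des, Ttn and Pvalb), at 2 of 6 endothelial markers (Cdh5 and Flt1), at the immune marker Cd68 among 6, and at 0 of 6 satellite cell, 0 of 6 fibro-adipogenic and 0 of 6 smooth muscle and Schwann cell markers. The window reaches 5 kb past a gene, so a peak counted at a marker can lie at another gene. Mpdu1 and Eif4a1 had the same 299 bp under Ctrl peaks as Cd68. No marker had a KO PHF2 or an IgG peak. Of all protein-coding genes 7.38% had a Ctrl PHF2, 0.713% a KO PHF2, 0.0640% a Ctrl IgG and 0.155% a KO IgG peak. With 6 or 10 markers in a list, nothing about cell types is read from these counts. The part of cells without Cre in the KO peaks at Dusp1, Dusp6, Spry1, Spry2 and Trib1 was not tested.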

How the data were processed

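Peak lists of 4 CUT&RUN libraries were analysed, grouped by title. The submitters' processing notes name Bowtie2, MACS2 and mm10, without versions or settings. The control library of the calling is not stated. Each peak name holds the name of 1 library, from which peaks were taken as called separately. The deposited columns used were the authors' fold enrichment, a ratio at the summit over a local background, the authors' -log10 p and -log10 q, and the summit offset. The deposited score restates the -log10 q and was not used.

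The members and lists were chosen with earlier results of these data known. Gene bodies and strands came from RefSeq tables of GRCm38.p6, where 17492 of 21887 protein-coding genes had a promoter entry. Dusp29 and Styxl2 were looked up as Dupd1 and Dusp27. Tags were solved from the MACS2 definitions of fold, (pileup + 1) / (background + 1), and of p, a Poisson upper tail. All 309 distinct pairs of values in Ctrl PHF2 and all 84 in KO PHF2 gave whole tags, within 0.005, times 0.649 and 0.609. Other factors reached at most 36.2% and 39.3%, and 1 Ctrl pair stayed ambiguous. Of 150 simulated peaks 100% were recovered, and the window search was tested on simulated data. Tag ratios carry exact conditional 95% intervals. Named genes were the members and, per list, those with a KO peak and up to 4 more by Ctrl fold enrichment. Alternatives changed the window, the -log10 q (at least 3), the overlap rule, the merging of peaks and the distance to the start. Software was Python 3.11.15 with NumPy 2.4.6, SciPy 1.17.1 and pandas 2.3.3, and figures were drawn in matplotlib 3.10.9.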

Additional observations from a re-analysis of the deposited data

How the results depend on the processing

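No paired analysis was possible because a group is 1 library, and for the same reason none could be left out. Of 44 alternatives over the counts of members and peaks, 40 stayed within 1.5 times the reported count. The 8 members with a Ctrl PHF2 peak stayed 8 under all their alternatives, and the 5 with a KO PHF2 peak stayed 5 except at a -log10 q of at least 3, where there were 4, since the Dusp1 peak in KO falls below it. Merging peaks within 1 kb left 9 of the 15 Ctrl PHF2 peaks. When an overlap had to reach 50% of both peaks, 2 of the 5 Ctrl peaks kept a KO counterpart. Ctrl summits near the start numbered 7 within 1 kb, 1 within 500 bp and 12 within 2 kb. These changes follow from how each count is built. Summits of 11 to 32 tags give wide intervals, so a tag ratio as low as 0.556 was not told apart from 1 at this depth.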
